A study of Mus musculus with 30 samples.

Results

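A set of 10 genes of cartilage-type extracellular matrix were followed through the postnatal growth of the mouse sclera. They were taken by name, out of 19938 genes measured, and not by their signal or its change. The list was nevertheless chosen with earlier results of these data known. They comprised the fibrillar and fibril-associated collagen genes Col2a1, Col9a1, Col9a2 and Col11a2, the proteoglycan gene Acan and its link protein gene Hapln1, the glycoprotein genes Comp, Cilp and Chad, and the transcription factor gene Sox9. All 10 had a transcript cluster, the set of probes read as 1 unit on the array, that carried their symbol alone, and no filter on low signal was applied, so all 10 entered every comparison. The samples were scleras of untreated Balb/cJ mice, an albino inbred strain, at 1, 2, 3, 6 and 8 weeks of age, measured on Mouse Gene 1.0 ST arrays. There were 6 arrays per age, each from a different animal, with no genetic change in any group, and no source used here gives the animals' sex. By the methods, the mice came from the same family, and their kinship within and between ages is not given. The ages were compared to ask which genes change while the eye grows.

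In hyaline cartilage, collagen II forms thin fibrils with collagen XI inside them and collagen IX on their surface, and these hold a gel of aggrecan. Aggrecan, a proteoglycan loaded with chondroitin sulfate and keratan sulfate chains, binds along hyaluronan, and the link protein encoded by Hapln1 locks that bond. Sox9 is the transcription factor that starts and maintains the chondrocyte program. The sclera of birds and fishes contains a cartilage layer, whereas that of mice and other placental mammals is a fibrous shell of collagen I made by fibroblasts, in which aggrecan and other cartilage-type products have nevertheless been described. Comp, Cilp and Chad products are also found in tendon and other fibrous tissue.

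Equalities in the deposited values set the number of arrays used. Week 2 replicate 4 equalled the mean of the other 5 arrays of week 2 at every transcript cluster, with a largest difference of 8e-05 on the log2 scale. It therefore added no value of its own and was left out, so week 2 had 5 arrays, every other week had 6, and 29 arrays were fitted. In week 6, the mean of replicates 4 and 6 equalled the mean of the other 4 arrays at every transcript cluster, within 7.5e-05, and these arrays were kept. Over 155 ways of splitting the arrays of a week into 2 sets, only these 2 gave equal means, and the next smallest median difference was 0.0706. Whether the removal of scan date effects that the methods name made these equalities was not tested. Array medians ran between 6.151 and 6.369 on the log2 scale. Week 8 replicate 2 stood apart from its week, with a median correlation of 0.964 to the other arrays of its age, and results that rest on it are given without it as well. Matrix genes of scleral fibroblasts, 14 of 15 of them measured, averaged 10.40, 9.20, 9.89, 9.59 and 9.59 on the log2 scale in weeks 1, 2, 3, 6 and 8. As these are whole-tissue samples, a change in the share of a cell type and a change in RNA per cell cannot be told apart.

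Differences between ages were tested with limma over all 35556 transcript clusters, and a gene was called where its fold change was at least 2 and its adjusted p was 0.05 or less. Fold changes below 1 are written as their negative inverse. Quantile normalization gives every array 1 distribution, and the array spread covariate is each array's interquartile range, added to the fit. For successive ages and week 8 versus week 1, where a difference no longer passed under either, that value is given too. The interquartile ranges ran between 2.60 and 2.79 in week 1, 2.22 and 2.56 in week 2, and 2.71 and 2.80 in week 3. In week 6 they ran between 2.26 and 2.64. Up to week 6 the ranges of successive ages did not overlap, so the covariate is confounded with age at those steps. A difference lost under it there cannot be assigned to spread or to age. Other pairs of weeks are given only as deposited, so their dependence on these settings or on single arrays is not shown. In the test across all 5 ages, 9 of 10 members passed an adjusted p of 0.05, against 89.8% of all transcript clusters, so the members' share was near the background. Between successive ages, most of their changes were small. The median size of the log2 change over the members was 0.34 in week 2 versus week 1, 0.21 in week 3 versus week 2, 0.36 in week 6 versus week 3 and 0.30 in week 8 versus week 6. Over all transcript clusters the same medians were 0.43, 0.29, 0.33 and 0.22.

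**Figure D1:**
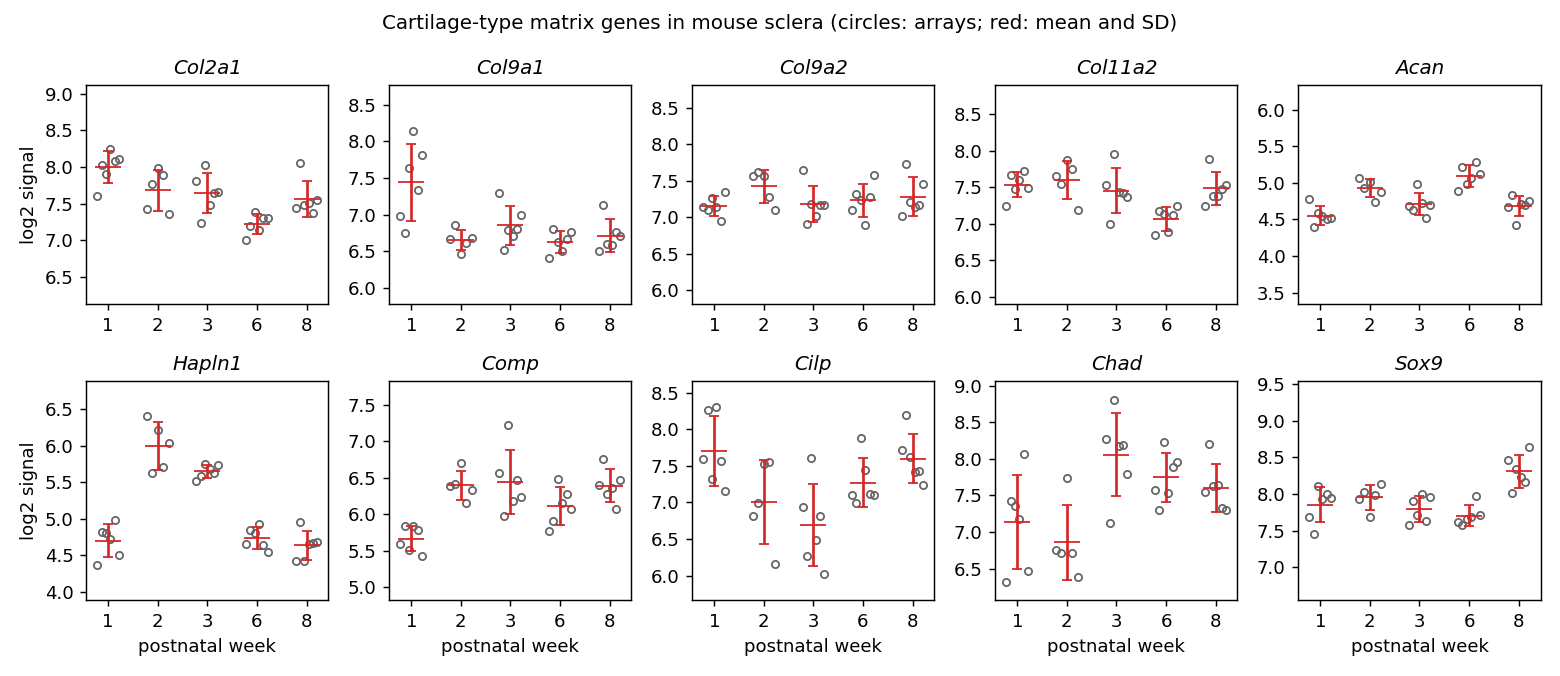
Log2 signal of the 10 cartilage-type matrix genes (vertical axis, spanning 3 log2 units in each panel) by postnatal week (horizontal axis), with a circle for each of the 29 arrays and red marks for the mean and SD of 6 arrays (5 in week 2). Hapln1 stood near 6.00 in week 2 and 5.65 in week 3 and at 4.74 or below in the other weeks, and Sox9 was highest in week 8, at 8.31.

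In week 2 versus week 1, Hapln1 was the only member called higher, a share of 1 in 10 beside 3.82% of all transcript clusters. None of the 10 was called lower, against 7.72% overall. By the adjusted p alone, with no fold threshold, Hapln1, Comp and Acan were higher (3 of 10, against 35.7%) and Col9a1 and Cilp were lower (2 of 10, against 29.9%). In week 3 versus week 2, Chad was the only member called higher (background 2.66%) and none was called lower (1.64%). By the adjusted p alone, Chad was higher (1 of 10, against 21.7%) and Hapln1 and Acan were lower (2 of 10, against 25.1%). No member was called in week 6 versus week 3, where 3.9% of transcript clusters were called higher and 3.68% lower. By the adjusted p alone, Acan was higher there (1 of 10, against 32.1%), and Hapln1, Col2a1 and Col11a2 were lower (3 of 10, against 22.3%). In week 8 versus week 6 there was again no member called, beside 1.11% called higher and 2.66% called lower overall. By the adjusted p alone, Sox9, Col11a2 and Col2a1 were higher (3 of 10, against 12.1%) and Acan was lower (1 of 10, against 22.9%).

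Over the whole span, week 8 versus week 1, no member was called, while 2.4% of transcript clusters were called higher and 4.8% lower. By the adjusted p alone, Comp and Sox9 were higher in week 8 (2 of 10, against 26.1%), and Col2a1 and Col9a1 were lower (2 of 10, against 26.9%). The median log2 change of the members over this span was 0.04, and that of all transcript clusters was 0.02. The direction differed between the steps. The members' median was 0.09 in week 2 versus week 1, -0.15 in week 3 versus week 2, -0.27 in week 6 versus week 3 and 0.18 in week 8 versus week 6, whereas the medians over all transcript clusters were 0.06, -0.05, 0.09 and -0.07.

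**Figure D2:**
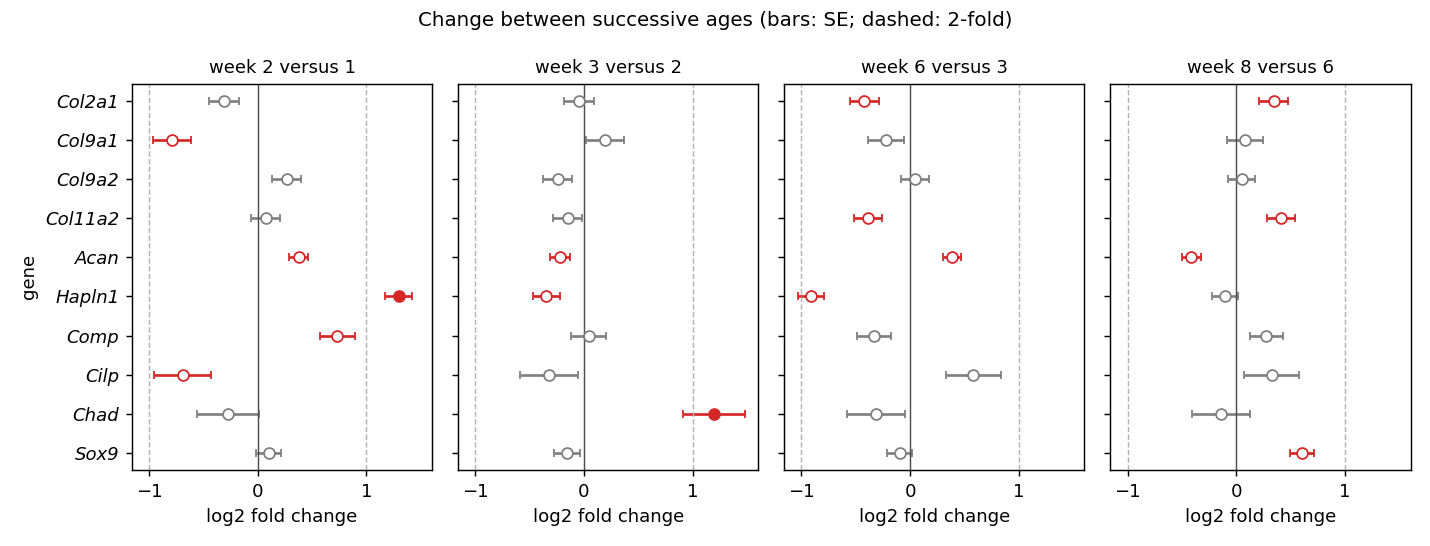
Log2 fold change (horizontal axis, later over earlier week, bars for SE) of each member (vertical axis) in the 4 successive comparisons. Red points had an adjusted p of 0.05 or less, filled points were also changed at least 2-fold (dashed lines), and these were Hapln1 in week 2 versus week 1, at 1.30, and Chad in week 3 versus week 2, at 1.20.

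Hapln1, whose product stabilizes the binding of aggrecan to hyaluronan, had the largest change of the 10 between successive ages. Its log2 signal in week 1 ran between 4.37 and 4.98, with a median of 4.76. The 5 arrays of week 2 read 6.40, 5.63, 6.22, 5.71 and 6.04. In week 3 the lowest, median and highest arrays read 5.52, 5.65 and 5.76. Every array of weeks 2 and 3 thus lay above every array of the other 3 weeks, since week 6 ran between 4.55 and 4.93 with a median of 4.73, and week 8 between 4.42 and 4.96 with a median of 4.67. The change in week 2 versus week 1 was a log2 fold change of 1.30 ± 0.12 (SE), or 2.46-fold, with a limma adjusted p of 5.488e-09. In week 6 versus week 3 the log2 fold change was -0.91 ± 0.12, with a limma adjusted p of 3.993e-07 and a fold change of -1.89, short of the threshold of 2. It passed 2-fold under quantile normalization and with the array spread covariate, at -1.10 and -1.14 on the log2 scale. Week 8 did not differ from week 1 beyond the spread (log2 fold change -0.06, limma adjusted p 0.6594).

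The difference of Hapln1 between week 3 and week 2 was -0.35, with a limma adjusted p of 0.02446, and it rested on 2 arrays. Without week 2 replicate 1 it was -0.25 (adjusted p 0.1129), and without week 2 replicate 3 it was -0.29 (adjusted p 0.07331). It did not pass under quantile normalization (-0.26, adjusted p 0.1175) or with the array spread covariate (-0.06). The transcript cluster of Hapln1 was dim, with a mean signal above 28.1% of all transcript clusters. The files give no detection call, so whether its RNA was detectable in weeks 1, 6 and 8 is not known.

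Markers of corneal and conjunctival epithelium changed at the same step. All 16 of the 16 listed were measured, and their mean log2 signal per array ran between 7.62 and 9.37 in week 1 and between 10.28 and 11.14 in week 2. In week 3 it ran between 8.94 and 11.33, in week 6 between 9.91 and 10.72 and in week 8 between 9.86 and 11.16. Their part in the change of Hapln1 was not tested.

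Acan encodes aggrecan, the large proteoglycan that Hapln1 links. Its highest mean was in week 6, which was not told apart from week 2 (log2 fold change 0.17, limma adjusted p 0.1352). The lowest, median and highest arrays read 4.39, 4.53 and 4.78 in week 1 and 4.53, 4.70 and 4.99 in week 3. In week 2 the 5 arrays lay between 4.74 and 5.07. Week 6 ran between 4.89 and 5.29 with a median of 5.10, and week 8 between 4.42 and 4.84 with a median of 4.70. Every array of week 6 was above every array of weeks 1 and 8, whereas the arrays of week 6 overlapped those of weeks 2 and 3. The log2 fold change was 0.37 ± 0.09 in week 2 versus week 1 (limma adjusted p 0.0007889) and 0.39 ± 0.09 in week 6 versus week 3 (limma adjusted p 0.000479). In week 8 versus week 6 it was -0.41 ± 0.09 (limma adjusted p 0.0004625). The first of these was 0.13 (adjusted p 0.3834) with the array spread covariate, and the second was 0.17 (adjusted p 0.06403) under quantile normalization and 0.16 (adjusted p 0.2167) with the covariate. The fold change of largest size between successive weeks was -1.33, and the transcript cluster was dim, with a mean signal above 22.8% of all transcript clusters. In week 3 versus week 2 the log2 fold change was -0.22 (limma adjusted p 0.04776), and the adjusted p was above 0.05 in 9 of 11 fits that left out 1 array, all but those without week 2 replicate 5 or week 3 replicate 3, with log2 fold changes between -0.28 and -0.18 and adjusted p up to 0.1293. It was 0.06, the opposite direction, with the array spread covariate.

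Comp, a pentameric glycoprotein of the thrombospondin family that binds collagen fibrils, was lowest in week 1. There the lowest, median and highest arrays read 5.43, 5.69 and 5.84. Week 2 ran between 6.15 and 6.70, week 3 between 5.98 and 7.21, and week 8 between 6.07 and 6.75. None of the arrays of these 3 weeks overlapped those of week 1, and week 6, between 5.77 and 6.49, did overlap them. The log2 fold change was 0.73 ± 0.16 in week 2 versus week 1, or 1.66-fold (limma adjusted p 0.0003271), which was 0.45 with the array spread covariate (adjusted p 0.1327), and 0.72 ± 0.15 in week 8 versus week 1 (limma adjusted p 0.0003853). No step after week 2 passed the threshold, with log2 fold changes of 0.05, -0.33 and 0.28 in weeks 3, 6 and 8, each against the age before. The step of week 6 versus week 3 (limma adjusted p 0.07127) passed without week 3 replicate 2 (-0.42, adjusted p 0.02286) and without week 6 replicate 3 (-0.40, adjusted p 0.03272).

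Among the other thrombospondins, 4 of them measured, none was called higher and 2 were called lower in week 2 versus week 1, Thbs1, a matricellular regulator of cell adhesion (log2 fold change -1.51 ± 0.27, limma adjusted p 2.493e-05), and Thbs2 (-1.72 ± 0.33, limma adjusted p 6.529e-05). In week 3 versus week 2, 2 of the 4 were called higher, Thbs1 at 2.03-fold and Thbs4, a tendon and muscle protein, at 2.24-fold. Over all transcript clusters, 7.72% were called lower at the first step and 2.66% higher at the second. The difference between Comp and these genes was not itself tested.

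Chad, whose product chondroadherin is a leucine-rich repeat protein that binds collagen and cell-surface integrins, was the other member called between successive ages. In week 1 its arrays spread widely, with a lowest of 6.32, a median of 7.27 and a highest of 8.07. The 5 arrays of week 2 read 6.76, 6.71, 7.74, 6.71 and 6.39. Those of week 3 ran between 7.12 and 8.81 with a median of 8.18. The arrays of weeks 2 and 3 therefore overlapped, through week 2 replicate 3 at the upper end and the lowest array of week 3. The log2 fold change in week 3 versus week 2 was 1.20 ± 0.28, or 2.30-fold, with a limma adjusted p of 0.001329, and leaving out any 1 array of the 2 weeks gave values between 1.05 and 1.42, all called. With the spread of each array as a covariate it was 1.46 with an adjusted p of 0.06156 and was no longer called. That spread itself did not overlap between weeks 2 and 3. In weeks 6 and 8 Chad averaged 7.75 ± 0.34 and 7.61 ± 0.33 (SD, n = 6 each), and neither step after week 3 passed the threshold.

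In the annotation of GRCm38.p6, Chad (chr11:94565047-94569127) lies within the bounds of the gene Acsf2. The bounds of Hapln1, Acan, Comp, Cilp and Col2a1 each overlap those of another annotated gene as well. Of 13 tendon and ligament genes, all measured, 3 were called higher in week 3 versus week 2, against 2.66% of all transcript clusters, namely Prelp (log2 fold change 1.81 ± 0.26, limma adjusted p 7.661e-06), Fmod (1.37 ± 0.31, limma adjusted p 0.0008747) and Col12a1 (1.19 ± 0.34, limma adjusted p 0.00598), and none was called lower. The mean log2 signal of this list ran between 6.88 and 8.00 in week 2 and between 7.37 and 8.46 in week 3. At the same step 11 of 12 markers of the retinal pigment epithelium, 9 of 11 of melanocytes and 10 of 16 of photoreceptors were called higher, and none was called lower. Of matrix genes of scleral fibroblasts, which share Fmod with the tendon list, 4 of 14 were called higher and 0 lower. So were 3 of 6 of corneal stroma, 3 of 7 of ciliary epithelium and trabecular meshwork and 3 of 10 of endothelium. For Mueller glia it was 4 of 12 and for macrophages and leukocytes 4 of 14. For corneal and conjunctival epithelium it was 1 of 16, for striated muscle 0 of 20 and for lens 0 of 12. The part of these genes in the change of Chad was not tested.

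Sequence upstream of Hapln1 and of Chad is shown because these are the 2 members called between successive ages. Upstream windows in the RefSeq promoter set for GRCm38.p6 were matched by symbol for 7 of 10 members. Each window was searched over its 250 bases before a start site, on both strands, for the cores AACAAT and ACAAAG, which factors of the SOX family can bind, for the TATA box TATAAA and for the GC box GGGCGG. These occurred in 9.4%, 16.5%, 12.4% and 32.7% of 32851 windows of that length. The SOX cores were found in the windows of 0 of the 7 members, and none of the 4 motifs in that of Hapln1. Capitals mark the GC box that begins 108 bases before the start of Chad and the TATA box that begins 28 bases before it. A match is a description of the letters and says nothing of what binds there. The 143 bases before the bounds of Hapln1 (chr13:89540386-89540528, plus strand) and the 250 bases before Chad (chr11:94564797-94565046, plus strand) read as follows.
Hapln1: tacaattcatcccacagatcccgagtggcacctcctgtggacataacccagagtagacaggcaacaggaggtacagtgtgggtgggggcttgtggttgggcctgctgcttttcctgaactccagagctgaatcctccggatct
Chad: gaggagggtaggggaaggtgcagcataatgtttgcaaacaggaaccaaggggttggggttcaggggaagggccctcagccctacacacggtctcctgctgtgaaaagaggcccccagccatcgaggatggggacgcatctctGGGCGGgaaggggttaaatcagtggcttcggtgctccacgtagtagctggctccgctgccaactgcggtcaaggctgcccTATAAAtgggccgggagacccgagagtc

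Cilp, which encodes a large glycoprotein of the cartilage intermediate layer that is also made in heart and skeletal tissue, was the member lowest in week 3. The lowest, median and highest arrays read 7.16, 7.58 and 8.30 in week 1, 6.16, 7.00 and 7.55 in week 2, and 6.02, 6.65 and 7.61 in week 3. Week 6 ran between 7.00 and 7.88 with a median of 7.11, and week 8 between 7.23 and 8.19 with a median of 7.52. All neighbouring weeks overlapped. The log2 fold change in week 2 versus week 1 was -0.69 ± 0.27 (limma adjusted p 0.02428), and it did not pass without week 1 replicate 2 (-0.58, adjusted p 0.06267), week 1 replicate 4 (-0.57, adjusted p 0.06842), week 2 replicate 1 (-0.64, adjusted p 0.05514) or week 2 replicate 6 (-0.48, adjusted p 0.1095). Nor did it pass under quantile normalization (-0.54, adjusted p 0.08749) or with the array spread covariate (-0.81, adjusted p 0.1233). In week 3 versus week 1 it was -1.01 ± 0.25 (limma adjusted p 0.001805), a fold change of -2.02 that just passed the threshold of 2. In week 8 versus week 3 it was 0.91 ± 0.25 (limma adjusted p 0.005256). Neither comparison is given under the alternatives or with an array left out. The step of week 6 versus week 3 was 0.58 ± 0.25 (limma adjusted p 0.05355). It passed without week 3 replicate 3 (0.77, adjusted p 0.01016) and without week 6 replicate 2 (0.64, adjusted p 0.0498).

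Striated muscle markers, 20 of 20 measured, moved in the same direction as Cilp at these steps. Their mean log2 signal per array ran between 9.19 and 11.44 in week 1, 6.22 and 7.70 in week 2, 5.98 and 7.91 in week 3, 8.95 and 10.54 in week 6, and 9.31 and 10.85 in week 8. Their part in the profile of Cilp was not tested.

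Among the collagen genes, Col2a1, which encodes the main fibrillar collagen of cartilage, was highest in week 1 and lowest in week 6. The lowest, median and highest arrays read 7.61, 8.06 and 8.25 in week 1 and 7.00, 7.24 and 7.39 in week 6, without overlap. In week 2 the arrays lay between 7.35 and 7.99, in week 3 between 7.23 and 8.02 and in week 8 between 7.37 and 8.05. In week 6 versus week 1 it had a log2 fold change of -0.78 ± 0.13 (limma adjusted p 3.489e-05), and in week 6 versus week 3 one of -0.42 ± 0.13 (limma adjusted p 0.009103), or -0.34 (adjusted p 0.0501) under quantile normalization. In week 2 versus week 1 the value was -0.31 (limma adjusted p 0.05147), which passed without week 1 replicate 1 (-0.39, adjusted p 0.01669), week 2 replicate 3 (-0.39, adjusted p 0.02306) or week 2 replicate 5 (-0.36, adjusted p 0.03438).

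Col2a1 was higher in week 8 than in week 6 by 0.35 ± 0.13 (limma adjusted p 0.04309), and this value leaned on week 8 replicate 2, its highest array of that week. Without that array it was 0.25 with an adjusted p of 0.132. The adjusted p was above 0.05 in 7 of 12 fits that left out 1 array, those without replicates 1, 2, 4 or 6 of week 6 or replicates 2, 4 or 6 of week 8, over a range of 0.25 to 0.39 on the log2 scale.

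Col11a2, which encodes a chain of the collagen XI that sits inside collagen II fibrils, followed Col2a1 in being lowest in week 6. Its arrays ran between 7.25 and 7.73 in week 1 and between 7.20 and 7.88 in week 2. Week 3 lay between 7.00 and 7.96, week 6 between 6.85 and 7.25 and week 8 between 7.24 and 7.89. The arrays of week 6 overlapped those of week 8 by a narrow margin. The log2 fold change was -0.38 ± 0.13 in week 6 versus week 3 (limma adjusted p 0.01444) and 0.41 ± 0.13 in week 8 versus week 6 (limma adjusted p 0.01441). The fall was -0.28 with an adjusted p of 0.0553 without week 3 replicate 3 and -0.31 with an adjusted p of 0.06703 under quantile normalization, and the rise was 0.33 with an adjusted p of 0.04604 without week 8 replicate 2.

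Col9a1 and Col9a2 encode chains of collagen IX, which coats collagen II fibrils. In the values as deposited, only Col9a1 had differences past the threshold, and the difference between these genes was not itself tested. Col9a1 was high and scattered in week 1, where the lowest, median and highest arrays read 6.74, 7.49 and 8.14. Week 2 ran between 6.46 and 6.85, week 3 between 6.52 and 7.30, week 6 between 6.41 and 6.80 and week 8 between 6.502 and 7.12. The lowest array of week 1 lay inside the range of each later week. Col9a1 fell by 0.79 ± 0.17 on the log2 scale in week 2 versus week 1, a fold change of -1.73 (limma adjusted p 0.0003359). No later step passed the threshold. In week 8 versus week 1 the log2 fold change was -0.73 ± 0.17 (limma adjusted p 0.000784), and -0.81 without week 8 replicate 2.

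Many marker genes of other tissues were lower at the same step. In week 2 versus week 1, 15 of 16 photoreceptor, 11 of 12 retinal pigment epithelium, 9 of 11 melanocyte, 7 of 12 lens and 20 of 20 striated muscle markers were called lower, and so were 10 of 14 matrix genes of scleral fibroblasts. Photoreceptor markers, 16 of 18 measured, had a mean log2 signal per array between 7.29 and 10.27 in week 1 and between 5.01 and 6.70 in week 2. For the retinal pigment epithelium, with 12 of 12 measured, the ranges were 7.64 to 9.41 and 5.29 to 6.79. The mean of 12 lens markers, all measured, spread between 5.86 and 10.45 in week 1 and between 6.09 and 8.26 in week 2. The part of these tissues in the change of Col9a1 was not tested.

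Col9a2 was the only member with no difference past the threshold in the values as deposited, in the test across 5 ages (limma adjusted p 0.3344) and in each of the 10 comparisons between weeks. For weeks 1, 2, 3, 6 and 8 its means were 7.15 ± 0.14, 7.42 ± 0.22, 7.18 ± 0.25, 7.23 ± 0.23 and 7.28 ± 0.26 (SD, n = 5 for week 2 and 6 otherwise). Its largest successive change was 0.27 ± 0.13 in week 2 versus week 1 (limma adjusted p 0.08034). That comparison passed without week 2 replicate 6 (0.35, adjusted p 0.0302), and week 3 versus week 2 passed without week 3 replicate 1 (-0.33, adjusted p 0.03902). Under quantile normalization both passed, at 0.46 (adjusted p 0.007001) and -0.42 (adjusted p 0.02482).

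Sox9 changed late. The lowest, median and highest arrays read 7.45, 7.94 and 8.11 in week 1, 7.69, 7.99 and 8.14 in week 2, and 7.57, 7.81 and 8.00 in week 3. Week 6 ran between 7.57 and 7.97 with a median of 7.67, and week 8 between 8.01 and 8.64 with a median of 8.29. Every array of week 8 was above every array of weeks 3 and 6, and week 8 overlapped weeks 1 and 2. Sox9 was higher in week 8 than in week 6 by 0.61 ± 0.11 on the log2 scale, or 1.52-fold (limma adjusted p 0.0001311), and than in week 1 by 0.46 ± 0.11 (limma adjusted p 0.00166). Without week 8 replicate 2, which was the lowest array of that week for Sox9, these were 0.67 and 0.52. The first 3 steps had log2 fold changes of 0.10, -0.16 and -0.09, none past the threshold. Under quantile normalization the first and the second were 0.33 (adjusted p 0.01161) and -0.39 (adjusted p 0.006642).

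The order of the 5 weeks therefore differed between the members. Hapln1 ran weeks 2, 3, 6, 1 and 8 from high to low, with weeks 6, 1 and 8 not told apart. Comp ran weeks 3, 2, 8, 6 and 1, and only the last neighbours, weeks 6 and 1, differed (limma adjusted p 0.01678). For Sox9 week 8 was above week 2 (limma adjusted p 0.02704) and the other neighbours were not told apart. For Col9a1 week 1 was above week 3, the next in order (limma adjusted p 0.004953), and the later neighbours were not told apart. In the orders of Chad and Cilp no pair of neighbouring weeks differed past the threshold.

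**Figure D3:**
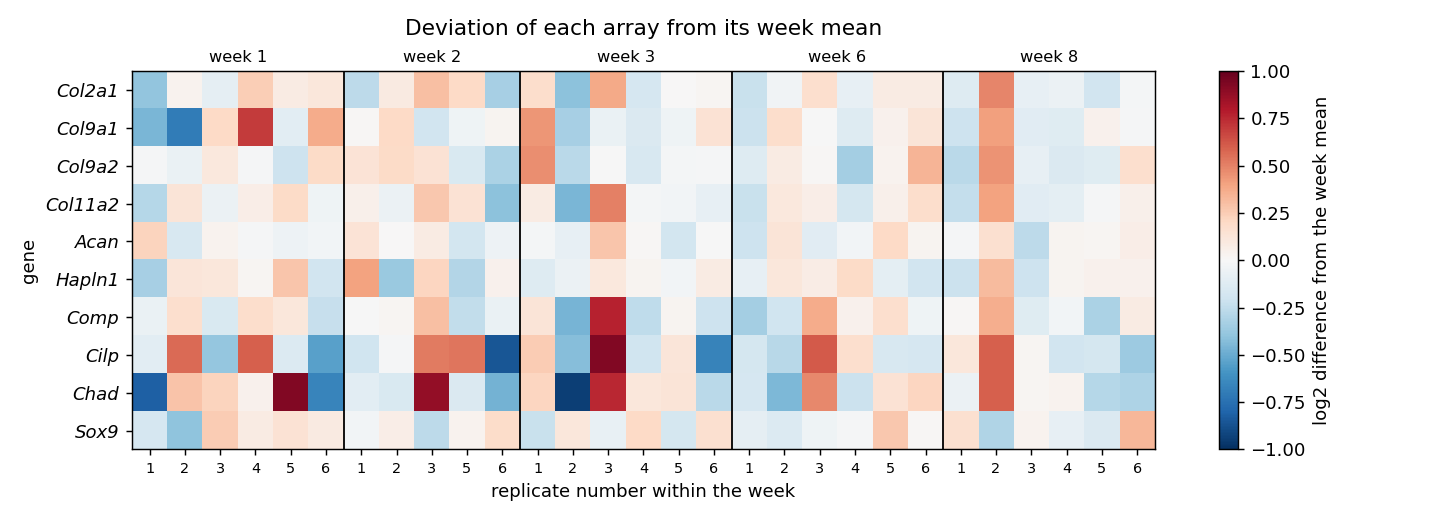
Log2 difference of each of the 29 arrays from the mean of its week (colour) for the 10 members (vertical axis), by replicate number within the week (horizontal axis). Week 8 replicate 2 was the highest of its week in 9 of 10 members, the exception being Sox9, and week 3 replicate 3 was the highest in 7.

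Within a week, the members often deviated together on an array. Week 8 replicate 2 was the highest of its 6 arrays for 9 members and the lowest for Sox9. In week 3, replicate 3 was the highest for 7 members and replicate 2 the lowest for 6. The members share the array, so these are not independent observations.

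Genes whose profile over the 29 arrays was nearest to the 2 members called between successive ages were sought among 11411 genes with 1 symbol and a mean signal above the median, and are given as a description. For Hapln1 these were Gm9222 (Pearson r = 0.88), Ssu2 (r = 0.86) and Foxi2 (r = 0.86). Over weeks 1, 2, 3, 6 and 8, Gm9222 averaged 6.01, 6.86, 6.77, 5.83 and 6.05. For Chad they were Prelp (r = 0.84), Fmod (r = 0.84), both leucine-rich repeat proteoglycans of connective tissue, and Cilp2 (r = 0.83), a relative of Cilp. Over the same weeks Prelp averaged 9.20, 8.46, 10.27, 9.51 and 9.52. The correlations include the spread within a week, and the arrays share their tissue composition.

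**Figure D4:**
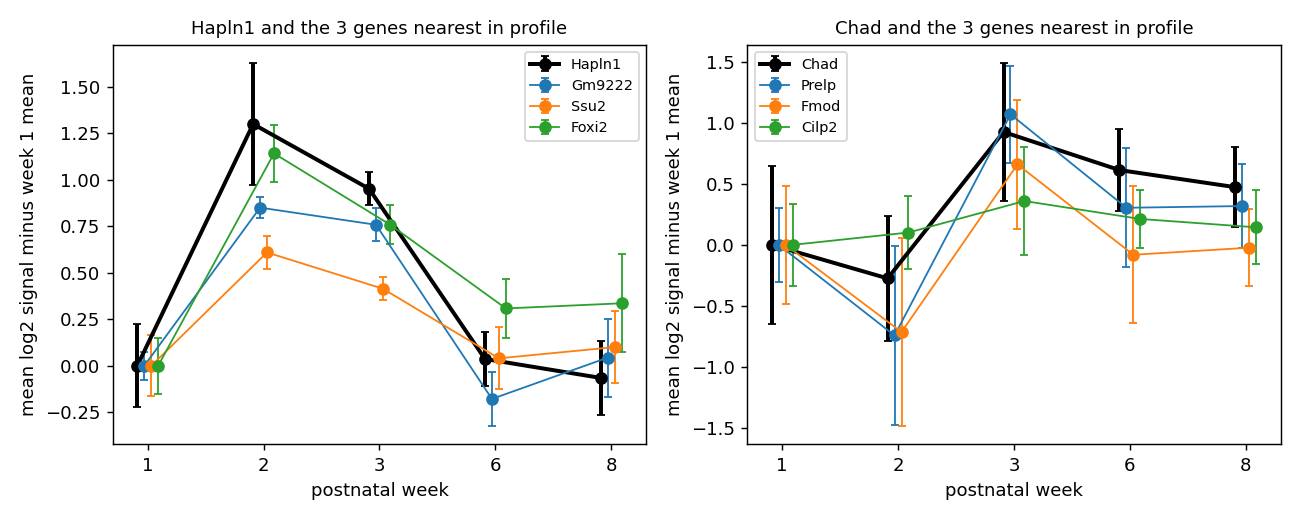
Mean log2 signal minus that of week 1 (vertical axis, bars for SD over 6 arrays, 5 in week 2) by postnatal week (horizontal axis), for Hapln1 with Gm9222, Ssu2 and Foxi2 and for Chad with Prelp, Fmod and Cilp2. Hapln1 and its nearest genes were highest in weeks 2 and 3, and Chad, Prelp and Fmod were lowest in week 2 and highest in week 3.

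Of other genes of cartilage matrix, 24 measured out of 25 listed, 1 was called higher and 2 lower in week 2 versus week 1, against 3.82% and 7.72% of all transcript clusters. Cytl1, which encodes a secreted protein found in cartilage, was called higher (log2 fold change 1.73 ± 0.25, limma adjusted p 1.333e-06), and Epyc, a small proteoglycan of growth cartilage (-1.35 ± 0.30), and Col10a1, the collagen of hypertrophic chondrocytes (-1.12 ± 0.26), were called lower. In week 3 versus week 2 the lubricating proteoglycan gene Prg4 alone was called, at 2.25-fold. Week 6 versus week 3 gave 1 higher, Epyc (2.15-fold), and 1 lower, Cytl1, whose log2 fold change was -2.58 ± 0.23 (limma adjusted p 9.442e-10). Cytl1 was thus, like Hapln1, higher in week 2 than in week 1 and lower in week 6 than in week 3. None was called in week 8 versus week 6. Over the whole span, week 8 versus week 1, 0 were called higher (2.4% overall) and 3 lower (4.8% overall), Col10a1, Otor and Col11a1, which encodes a partner chain of Col11a2 in collagen XI (-1.25 ± 0.19, limma adjusted p 5.68e-06). The median log2 change of the list was -0.07 in week 2 versus week 1 and -0.04 in week 8 versus week 1.

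Transcription factors and signals of chondrocytes, 17 of 19 measured, gave no call in week 2 versus week 1, week 3 versus week 2 or week 8 versus week 6. In week 6 versus week 3, Fgfr3, a growth factor receptor that restrains growth cartilage, was called lower (log2 fold change -1.24 ± 0.14, limma adjusted p 5.1e-08). In week 8 versus week 1, Barx2, a homeobox factor, was called higher (1.38 ± 0.23, limma adjusted p 2.244e-05). Each was 1 of 17, against 3.68% of all transcript clusters lower in the first comparison and 2.4% higher in the second. The partners of Sox9 in chondrocytes, Sox5 and Sox6, were among the 17 and were changed less than 2-fold in each of these 5 comparisons. By the adjusted p alone, both were lower in week 2 versus week 1, with log2 fold changes of -0.66 ± 0.10 for Sox5 (limma adjusted p 5.889e-06) and -0.42 ± 0.11 for Sox6 (limma adjusted p 0.001795), where Sox9 stood at 0.10.

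Of 8 relatives and hyaluronan partners of aggrecan, all measured, Vcan, which encodes the lectican versican, was lower (log2 fold change -1.35 ± 0.23, limma adjusted p 1.582e-05) and the hyaluronan receptor gene Cd44 was higher (1.41 ± 0.35, limma adjusted p 0.0009893) in week 2 versus week 1. That was 1 of 8 each way, where 7.72% of all transcript clusters were called lower and 3.82% higher. Both calls also held for week 8 versus week 1, at -1.98 and 1.41. The hyaluronan synthase gene Has2 was called higher in week 6 versus week 3 (1.05 ± 0.26). At that step, by the adjusted p alone, Hapln1 was lower and Acan higher. The rise of Acan did not pass under quantile normalization or with the array spread covariate. No gene of this list was called in week 3 versus week 2 or in week 8 versus week 6.

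Among 10 enzymes that cut aggrecan or cartilage collagen, all measured, 0 were called higher and 2 lower in week 2 versus week 1. Over all transcript clusters these shares were 3.82% and 7.72%. The 2 were Adamts5, an aggrecanase, and Htra1, a serine protease, with log2 fold changes of -1.59 ± 0.27 and -1.08 ± 0.23. The stromelysin gene Mmp3 was called higher in week 6 versus week 3 (1.10 ± 0.24) and in week 8 versus week 1, at 4.32-fold (limma adjusted p 1.355e-07). Htra1 was called lower in week 8 versus week 1, with mean log2 signals of 9.10 in week 1 and 8.02 in week 8. In that comparison 1 of 10 was thus called each way, against 2.4% higher and 4.8% lower of all transcript clusters. Of 16 genes that build and sulfate chondroitin sulfate, all measured, 2 were lower in week 2 versus week 1 (against 7.72%). The same 2 were higher in week 3 versus week 2 (against 2.66%). These were Chsy3, a chondroitin synthase (-1.70 and 1.07 on the log2 scale), and Ust, a uronyl sulfotransferase (-1.14 and 1.05). Xylt2, which starts the chains, was called lower in week 6 versus week 3 (-1.23 ± 0.11, limma adjusted p 7.921e-10).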

How the data were processed

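RNA of single scleras from Balb/cJ mice was measured on Mouse Gene 1.0 ST arrays, 1 mouse per array and 6 arrays per age. The deposited values are log2 signals per transcript cluster that the authors normalized between arrays. The methods name robust multiarray averaging and a removal of scan date effects, whereas GCRMA and Partek 6.5 are listed in the submitters' processing notes, and the method behind the values is not settled. Scan dates are not given in the sources used here, so a batch of that kind could not be fitted.

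The values were used as deposited. One mean per week was fitted for 35556 transcript clusters with limma 3.58.1 in R 4.3.3, with moderated variances, and p-values were adjusted within each comparison by the method of Benjamini and Hochberg. The planned fit held 30 arrays. Week 2 replicate 4, the mean of the other arrays of its week, was then left out as it is no separate measurement, and 29 arrays were fitted. Precision is limited by how many arrays there are. Of the transcript clusters, 21789 carried 1 gene symbol, 1621 several and 12146 none, by the platform annotation. Where a gene had several clusters of its own, the brightest stood for it, and each of the 10 genes had 1.

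The 10 genes, the lists of related genes and markers and the alternatives were chosen with earlier results of these data known. Named are all 10 members, some of the called genes of the lists and, for the 2 members called between successive ages, the 3 genes of highest Pearson correlation. A list gene that is not named may therefore still have been called. The fit was tested on simulated data, with planted changes. Alternatives were fewer transcript clusters, array weights, median centring, quantile normalization, fits of 2 weeks, a replicate block, no moderation, no fold threshold and the array spread covariate. Fits of all 30 arrays, a term for week 6 replicates 4 and 6 and fits without each array other than week 8 replicates 2 and 6 were chosen after seeing the data.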

Additional observations from a re-analysis of the deposited data

Results flagged for a closer look

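In 4 of 50 groups of arrays, 1 group for each member and week, the highest array lay farther from the next than Dixon's limit for the size of the group. Chance alone gives about 1 such group in 20. Chad in week 2 had replicate 3 at a log2 signal of 7.74, with the next array at 6.76, and Col2a1 in week 8 had replicate 2 at 8.05, with the next at 7.55. Col9a2 in week 3 had replicate 1 at 7.64, above 7.18, and Sox9 in week 6 had replicate 5 at 7.97, above 7.72. Without the array in question, the log2 fold change of Chad in week 3 versus week 2 was 1.42 and remained called, and that of Col2a1 in week 8 versus week 6 was 0.25 with a limma adjusted p of 0.132.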

How the results depend on the processing

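The counts of members called at 2-fold changed under few alternatives. Among transcript clusters above the median signal, 7 members remained and 0 were called higher in week 2 versus week 1, because Hapln1 was not among them. With the array spread covariate, 0 were called higher in week 3 versus week 2 (Chad 1.46, limma adjusted p 0.06156). Under median centring, quantile normalization and the covariate, 1 was called lower in week 6 versus week 3, Hapln1 at -1.002, -1.10 and -1.14. With no fold threshold the counts were 3 higher and 2 lower in week 2 versus week 1, 2 lower in week 3 versus week 2, 1 higher and 3 lower in week 6 versus week 3, 3 higher and 1 lower in week 8 versus week 6, and 2 higher and 2 lower in week 8 versus week 1. Leaving out each array in turn changed none of the 2-fold counts, and Hapln1 in week 2 versus week 1 stayed between 1.20 and 1.39. Fits with all 30 arrays or with the term for week 6 replicates 4 and 6 changed no 2-fold call, and with all 30 arrays the adjusted p of Col2a1 in week 2 versus week 1 was 0.03608 and that of Cilp in week 6 versus week 3 was 0.04824. With the term, the adjusted p of Col2a1 in week 8 versus week 6 was 0.09061 and that of Acan in week 3 versus week 2 was 0.0548. Whether replicate numbers pair the arrays is not settled. After the mean of its week was taken from each array, correlations of same-numbered arrays of 2 weeks ran between -0.181 and 0.462. In week 6 versus week 3, 3 of 6 arrays correlated best with the array of their own number. In week 2 versus week 1, 0 of 5 did. With the replicate block, Hapln1 in week 2 versus week 1 was 1.31 and Chad in week 3 versus week 2 was 1.20, and no 2-fold call changed.

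Directions reversed only for differences that did not pass the adjusted p in that setting. With the array spread covariate, Col2a1 was 0.17 and Acan 0.0587 in week 3 versus week 2. Col9a2 was -0.15, 0.25, -0.34 and -0.0891 in weeks 2 versus 1, 3 versus 2, 6 versus 3 and 8 versus 1, Col11a2 was -0.27 and 0.25 in weeks 2 versus 1 and 3 versus 2, and Sox9 was 0.11 in week 6 versus week 3. Under quantile normalization, Col11a2 was 0.0939 and Cilp 0.0375 in week 8 versus week 1, Hapln1 was 0.0324 in week 8 versus week 6 and Sox9 was 0.0041 in week 6 versus week 3. Col9a2 was -0.0387 under median centring in week 6 versus week 3. In week 8 versus week 6 it was -0.0471 with array weights, and -0.039 and 0.0166 without week 8 replicate 2 and replicate 6. Comp was -0.0229 with array weights in week 3 versus week 2. The causes were not tested. Over all transcript clusters, median centring changed the share of calls that were higher to 38.6%, against 51.4% as deposited, in week 6 versus week 3, and to 39.8%, against 29.4%, in week 8 versus week 6. With the covariate these shares were 69.5% and 23.8%, and that of week 3 versus week 2 was 72.8%, against 61.8%. No member had another transcript cluster with its symbol alone, so that alternative could not be run. No detection call was given, which limits what can be said of dim genes such as Hapln1 and Acan.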

Other observations

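Of 10 bone genes, 6 were measured, with a mean log2 signal per array between 5.24 and 5.77 over the 5 ages. Phex, an enzyme of osteocytes, was called lower in week 2 versus week 1 (log2 fold change -1.36 ± 0.17, limma adjusted p 2.132e-07), and Alpl, the alkaline phosphatase of mineralizing tissue, was called higher in week 3 versus week 2 (1.03 ± 0.23) and lower in week 6 versus week 3 (-1.04 ± 0.22). Each was 1 of 6, against 7.72%, 2.66% and 3.68% of all transcript clusters called in that direction. Of the 13 tendon and ligament genes, 6 were called lower in week 2 versus week 1 (7.72% of all transcript clusters), among them Tnmd, a membrane protein of tendon cells (-1.28 ± 0.34), and Ogn, a small leucine-rich proteoglycan (-1.76 ± 0.36). In week 8 versus week 6, 4 of the 13 were called lower (2.66% overall), Tnmd, Kera, Ogn and Aspn, with log2 fold changes between -1.41 and -1.08.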
